A study of Mus musculus with 8 samples.

Results

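The transcripts of 10 genes that control entry into the cell cycle were followed in muscle stem cells of young and old mice. They were the D cyclins Ccnd1, Ccnd2 and Ccnd3, the kinases Cdk4, Cdk6 and Cdk2, the CIP/KIP inhibitors Cdkn1a (p21), Cdkn1b (p27) and Cdkn1c (p57), and the INK4 inhibitor Cdkn2d (p19). They were taken by symbol from the deposited table, in which all 10 were found among 24630 genes. The animals were male C57BL/6 mice with no transgene or treatment named in the labels, 4 of them young (4 months) and 4 old (22 months), and each library came from the cells of 1 animal. Cells were sorted from muscle as negative for CD45, CD31 and Sca1 and positive for VCAM and were snap frozen, so that they were measured without culture. The comparison is therefore between ages in cells that had not been cultured, and all libraries share the strain, the sex and the sort.

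D cyclins bind CDK4 or CDK6, and the active pairs phosphorylate the retinoblastoma proteins, which releases E2F factors and lets a cell leave G1. CDK2 acts later in the same step with cyclin E and cyclin A. INK4 proteins block CDK4 and CDK6 alone, whereas CIP/KIP proteins bind cyclin-CDK pairs, inhibit CDK2 and can help cyclin D to assemble with CDK4. Muscle stem cells of an uninjured adult are mostly quiescent, p27 is known as a brake that marks their slowly dividing fraction, and p21 and p57 are known for cell cycle exit when muscle precursors differentiate.

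Values are in RPKM, that is, reads scaled to the length of the gene and the size of the library, and both available scales are given. The deposited scale divides by library sizes that the authors adjusted, and these were 1.14 to 1.64 times the reads in genes of the young libraries and 0.678 to 0.849 times those of the old. The other scale divides by the reads in genes themselves, and a value on it is called a share of reads. The median log2 fold change (old over young) of the 5703 genes that averaged 5 RPKM or more was 0.64 on the deposited scale and -0.01 as a share of reads. A member is said to have fallen where it passed the test as a share of reads, and to have risen only where it passed on both scales.

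Between 1.91 and 6.56 M reads (M, mega) fell in genes in the young libraries, against 20.1 to 24.9 M in the old. Olfactory and vomeronasal receptor genes, 1414 in all, were assumed to be silent in muscle as families. They averaged 0.486 ± 0.341 RPKM in the young and 0.0270 ± 0.00987 RPKM in the old libraries as a share of reads (SD, n = 4 each). The highest value, 0.982 RPKM, was in young library 2. The sum of 10 muscle stem cell markers, Pax7 and Myf5 among them, was 2796 to 3722 RPKM in the young and 2439 to 3273 RPKM in the old libraries (share of reads), with 0 markers at zero. Most of that sum was Sdc4 (1907 ± 382 RPKM in the young and 1715 ± 257 RPKM in the old libraries, SD, n = 4 each). Of the 10 markers 6 passed as lower and 1 as higher, with a median log2 fold change of -0.61 as a share of reads, and 1 passed as lower and 3 as higher on the deposited scale (median 0.05). Calcr, for one, fell from 52.8 ± 7.76 to 17.8 ± 3.53 RPKM as a share of reads. Tenocyte markers, 7 genes, summed to 239 to 377 RPKM in the young and 616 to 1959 RPKM in the old libraries, with 0 markers at zero. As a share of reads, the 6 of them that averaged 5 RPKM or more all passed as higher. Scx, too low to be tested there, went the other way. It stood at 0.43 ± 0.33 RPKM in the young and 0.23 ± 0.11 RPKM in the old libraries (SD, n = 4 each). Endothelial markers summed to 74.3 to 88.3 RPKM in the young and 32.4 to 72.8 RPKM in the old libraries. All 6 averaged 1 RPKM or more, and as a share of reads 1 of them passed as lower and 0 as higher. The part of the marker differences in the results was not tested, and the receptor level was subtracted in 1 alternative. In sorted bulk cells, fewer cells that express a gene and less of its RNA per cell cannot be told apart.

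As a share of reads, Ccnd1, Ccnd3, Cdk4 and Cdk2 fell with age, and none of the 10 genes passed as higher. Of the 5 members that averaged 5 RPKM or more, 3 passed in the lower direction (Ccnd3, Cdk4 and Cdk2) and 0 in the higher (limma, p adjusted by Benjamini-Hochberg, BH). Of all 5703 genes tested there, 12.5% passed as lower and 12.3% as higher. The other 5 members were too low for that filter and were tested among the 11096 genes that averaged 1 RPKM or more, where 20.5% of genes passed as lower and 7.11% as higher. At that filter 4 of 10 members passed as lower, with Ccnd1 added, and 0 as higher. The old libraries lay wholly below the young for these 4 genes, as they did for 23.1% of the genes at that filter and for 13.3% at the filter of 5 RPKM. The median log2 fold change of the 10 members was -0.34, against -0.19 for all genes of that fit, and 9 of the 10 were negative. Lower calls were more frequent among genes of low level, 25.9% of genes at 2 to 5 RPKM and 11.2% at 10 to 50 RPKM, so the count for the low members stands against a high background.

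On the deposited scale 0 of the 5 members above 5 RPKM passed, and 0 had an unadjusted p under 0.05, where 69.2% of genes passed in either direction and 68.1% as higher. With the filter at 1 RPKM, Ccnd1 passed as lower and Cdkn1c as higher, against 5.34% and 42.1% of genes. The groups of these 2 members did not overlap there, as was the case for 4.37% of genes in the lower and 39.8% in the higher direction. The median of the 10 members there was 0.18, against 0.36 for all genes. Ccnd1 was the single member that passed as lower on both scales.

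**Figure D1:**
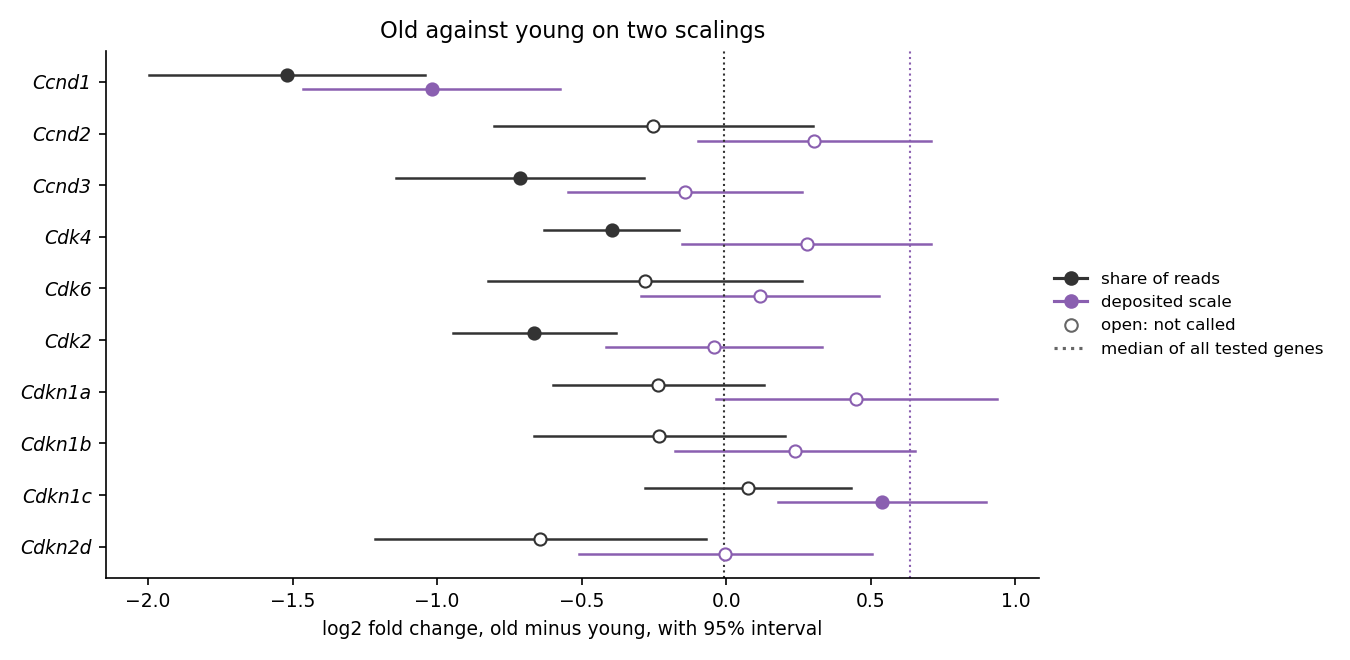
Log2 fold change, old over young, of the 10 genes on both scales, with 95% confidence intervals from limma. Filled points passed the threshold, dotted lines mark the medians of all genes at the filter of 5 RPKM (-0.01 and 0.64), and Ccnd1 alone lies below 0 with filled points on both scales. The points of Ccnd1, Ccnd2, Cdk6, Cdkn1b and Cdkn1c come from the fit at 1 RPKM. The medians of that fit, -0.19 as a share of reads and 0.36 on the deposited scale, are not drawn.

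The sequences just upstream of 3 of the genes that fell as shares of reads are shown first. Common control of these genes was not tested. They are the 250 bases before a RefSeq start on GRCm38.p6, 5′ to 3′ on the strand of the gene. Among the 10 genes the RefSeq table gave promoters for 7, and Ccnd1, which also fell, was not among them. Cdk4 is at chr10:127063285-127063534 (plus strand) and its capitals mark only the E-box CACGTG, the site that MYC-type factors can bind. The Cdk4 window also holds the GC box GGGCGG 1 time, at -80, which is left in lower case. Cdk2 is at chr10:128705052-128705301 (minus strand), and Ccnd3 is at chr17:47593217-47593466 (plus strand), before the downstream of its 2 starts. In Cdk2 the capitals mark an E2F motif, the GC box GGGCGG, the CCAAT box and the core TGACGT of the cyclic AMP response element, each on either strand, and in Ccnd3 they mark the last 3 of these.
Cdk4: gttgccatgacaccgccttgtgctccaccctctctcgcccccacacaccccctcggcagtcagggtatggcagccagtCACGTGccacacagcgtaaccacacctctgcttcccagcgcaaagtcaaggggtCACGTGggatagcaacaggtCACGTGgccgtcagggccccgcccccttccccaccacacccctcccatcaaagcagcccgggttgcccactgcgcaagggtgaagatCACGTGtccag
Cdk2: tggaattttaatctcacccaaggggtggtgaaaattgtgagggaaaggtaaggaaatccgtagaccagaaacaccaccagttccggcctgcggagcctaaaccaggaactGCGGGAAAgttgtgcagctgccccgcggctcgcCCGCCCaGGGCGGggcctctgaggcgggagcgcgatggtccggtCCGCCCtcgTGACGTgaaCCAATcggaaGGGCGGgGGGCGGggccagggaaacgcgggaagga
Ccnd3: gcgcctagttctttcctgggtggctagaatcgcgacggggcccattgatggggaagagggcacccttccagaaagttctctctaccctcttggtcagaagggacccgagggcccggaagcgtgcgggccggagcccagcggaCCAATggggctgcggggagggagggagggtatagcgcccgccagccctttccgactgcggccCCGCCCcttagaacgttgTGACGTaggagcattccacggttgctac

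The Cdk4 window held CACGTG 4 times, starting at -172, -118, -98 and -11 from the start, where -1 is the base before it. At least 1 such match was present in 6.02% of all 32851 promoter windows of that length, and at least 4 in 7 of them (0.0213%). The Cdk2 window held the E2F motif (TTTNNCGC with C or G at each N) once, at -140, and 1.86% of windows held it. It also held GGGCGG 5 times, and 32.7% of windows held it at least once and 4.09% at least 4 times. The core TGACGT lay at -54 in Cdk2 and at -28 in Ccnd3, and 6.47% of windows held it. The window before the upstream start of Ccnd3 (chr17:47504801-47505050) held 0 matches of TGACGT and 0 of CCAAT, and GGGCGG 2 times. Members that did not pass as lower held some of these motifs too. Cdk6 held CACGTG 1 time, and Cdkn1b held CCAAT 2 times and GGGCGG 1 time. Cdkn2d held GGGCGG 3 times and CCAAT 1 time, and Cdkn1a held GGGCGG 2 times before its downstream start. Both strands were searched and no motif overlapped another in these windows. These matches describe letters and not bound sites, and no binding was measured here.

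Ccnd1, cyclin D1, is the D cyclin that growth factor signals induce as cells leave quiescence. It lies on chromosome 7 from 144929931 to 144939925 on the minus strand (GRCm38, as for all positions below). As a share of reads it stood at 4.10, 7.0, 6.06 and 8.43 RPKM in young libraries 1 to 4. In the old libraries 1 to 4 it stood at 2.17, 0.837, 1.70 and 1.56 RPKM. Every young library was above every old one, and the lowest young value was library 1. Ccnd1 fell by 1.52 ± 0.22 on the log2(value + 1) scale (SE, 95% interval -2.0 to -1.04, limma, BH-adjusted p = 0.0022). The deposited values were 3.34, 4.28, 5.33 and 7.32 RPKM in young animals and 2.55, 1.24, 2.04 and 1.97 RPKM in old animals. The groups were again separate, with a log2 fold change of -1.02 ± 0.21 (limma, BH-adjusted p = 0.00207).

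The reads behind Ccnd1 numbered 52, 63, 187 and 226 in the young libraries and 205, 98, 183 and 153 in the old, although the old libraries were several times deeper. All libraries were also thinned once, at random, to 1912189 reads, the total of the shallowest. The log2 fold change of Ccnd1 was then -1.64 ± 0.29 (limma, BH-adjusted p = 0.0141). All thinned results given here rest on that draw. With the level of the receptor genes subtracted from every gene, an alternative added after the data were seen, it was -1.43 ± 0.22 as a share of reads (limma, BH-adjusted p = 0.00395). The call held in all 18 alternatives as a share of reads (-2.13 to -1.37) and in all 15 on the deposited scale (-1.32 to -0.85). The exons of Ccnd1 share 1100 bases, 23.4% of their length, with the opposite-strand gene LTO1. The kit does not mark the strand, so the reads of the shared bases cannot be assigned, and LTO1 itself stood at 1.65 RPKM in the young and 1.83 RPKM in the old libraries on the deposited scale.

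Ccnd2, cyclin D2, did not pass as a share of reads. It stood at 3.98, 7.45, 3.87 and 4.03 RPKM in the young libraries and at 5.02, 2.02, 5.03 and 3.69 RPKM in the old. The groups overlapped, with young library 2 and old library 2 at the extremes. The log2 fold change was -0.25 ± 0.25 (SE, 95% interval -0.80 to 0.30, limma, BH-adjusted p = 0.463). Deposited means were 3.68 ± 0.592 RPKM in the young and 4.89 ± 1.42 RPKM in the old libraries (SD, n = 4 each), a log2 fold change of 0.30 ± 0.19 (limma, BH-adjusted p = 0.194). Without old library 2 that value was 0.48, with adjusted p = 0.035 (limma), so the absence of a call rested on that library.

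Ccnd3, cyclin D3, known in muscle for its role in differentiating precursors, lies on chromosome 17 from 47505051 to 47599691. As a share of reads its values were 5.84, 6.67, 8.59 and 5.67 RPKM in the young libraries and 5.13, 2.67, 4.04 and 3.09 RPKM in the old. The groups did not overlap, though the highest old library, 5.13 RPKM, was close to the lowest young one. Ccnd3 fell by 0.71 ± 0.19 on the log2 scale (SE, 95% interval -1.14 to -0.29, limma, BH-adjusted p = 0.0212). The call was lost without young library 3 (adjusted p = 0.0674), old library 2 (0.0569) or old library 4 (0.059), without young libraries 1 and 2 together (0.0571) and after thinning (0.0628), with log2 fold changes of -0.78 to -0.60. Deposited values averaged 5.33 ± 1.53 RPKM in the young and 4.68 ± 1.00 RPKM in the old libraries (SD, n = 4 each), with a log2 fold change of -0.14 ± 0.20 (limma, BH-adjusted p = 0.516). Its exons share 361 bases with Bysl on the other strand, which stood at 11 RPKM in the young and 36.6 RPKM in the old libraries on the deposited scale.

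Together the D cyclins made up 17.9 ± 2.98 RPKM in the young and 9.24 ± 2.96 RPKM in the old libraries as a share of reads (SD, n = 4 each). Their make-up within a library does not depend on the scale. Ccnd1 supplied 29.4, 33.1, 32.7 and 46.5% of the D cyclin RPKM in the young libraries and 17.6, 15.1, 15.8 and 18.7% in the old. The young and old libraries did not overlap. Ccnd2 supplied 26.8 ± 6.59% in young and 42.0 ± 4.42% in the old libraries (SD, n = 4 each), again without overlap. Ccnd3 supplied 37.8 ± 7.57% and 41.1 ± 5.22%, with overlap. In young libraries Ccnd1 was the first or second D cyclin in all 4 libraries, and in all 4 old libraries it was the third.

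**Figure D2:**
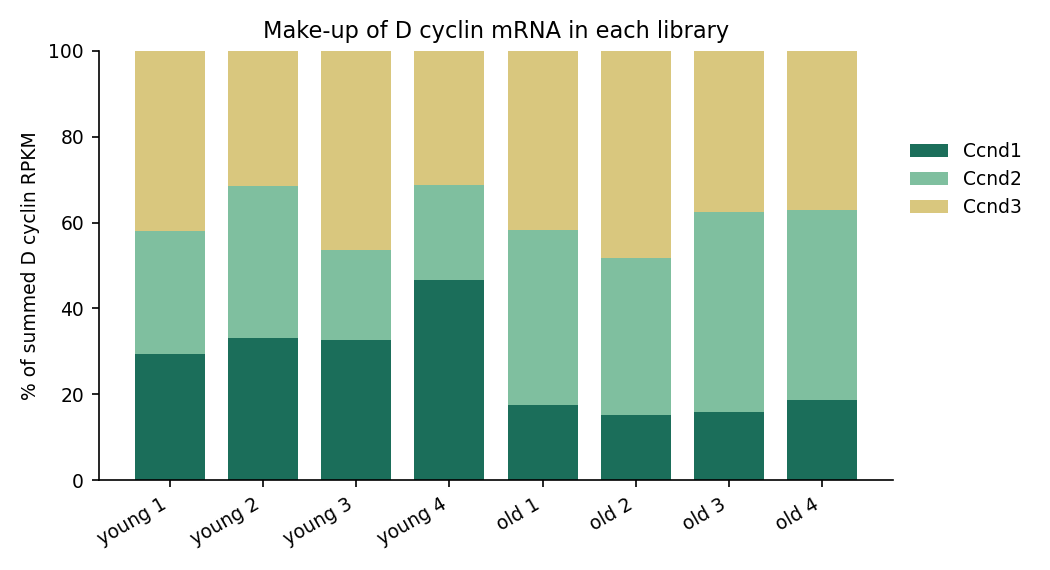
Percent of the summed D cyclin RPKM supplied by Ccnd1, Ccnd2 and Ccnd3 in each of the 8 libraries, shown as stacked bars from 0. The Ccnd1 segment is 29.4 to 46.5% in the young libraries and 15.1 to 18.7% in the old.

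Ratios of pairs of members within a library were compared over all 70 ways of assigning the 8 libraries to the ages (exact permutation, two-sided). There were 8 ratios in the family, and 0.0286 is the smallest p that 4 against 4 allows. The log2 ratio of Ccnd1 to Ccnd2 was 0.04, -0.09, 0.63 and 1.04 in the young libraries and -1.18, -1.20, -1.52 and -1.20 in the old. The groups were separate, and the difference was -1.68 ± 0.28 (SE, exact p = 0.0286, adjusted over the 8 ratios 0.0762). Relative to Ccnd3, the log2 ratio of Ccnd1 was -0.50, 0.07, -0.50 and 0.56 in young and -1.21, -1.60, -1.21 and -0.95 in old libraries. These groups were separate too, with a difference of -1.15 ± 0.29 (exact p = 0.0286, adjusted 0.0762). Ccnd2 to Ccnd3 overlapped between the ages, with a difference of 0.53 ± 0.31 (exact p = 0.143, adjusted 0.229). No ratio passed 0.05 after adjustment, and with 8 ratios and 4 animals per group that would have needed 5 or more ratios at the smallest p.

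**Figure D3:**
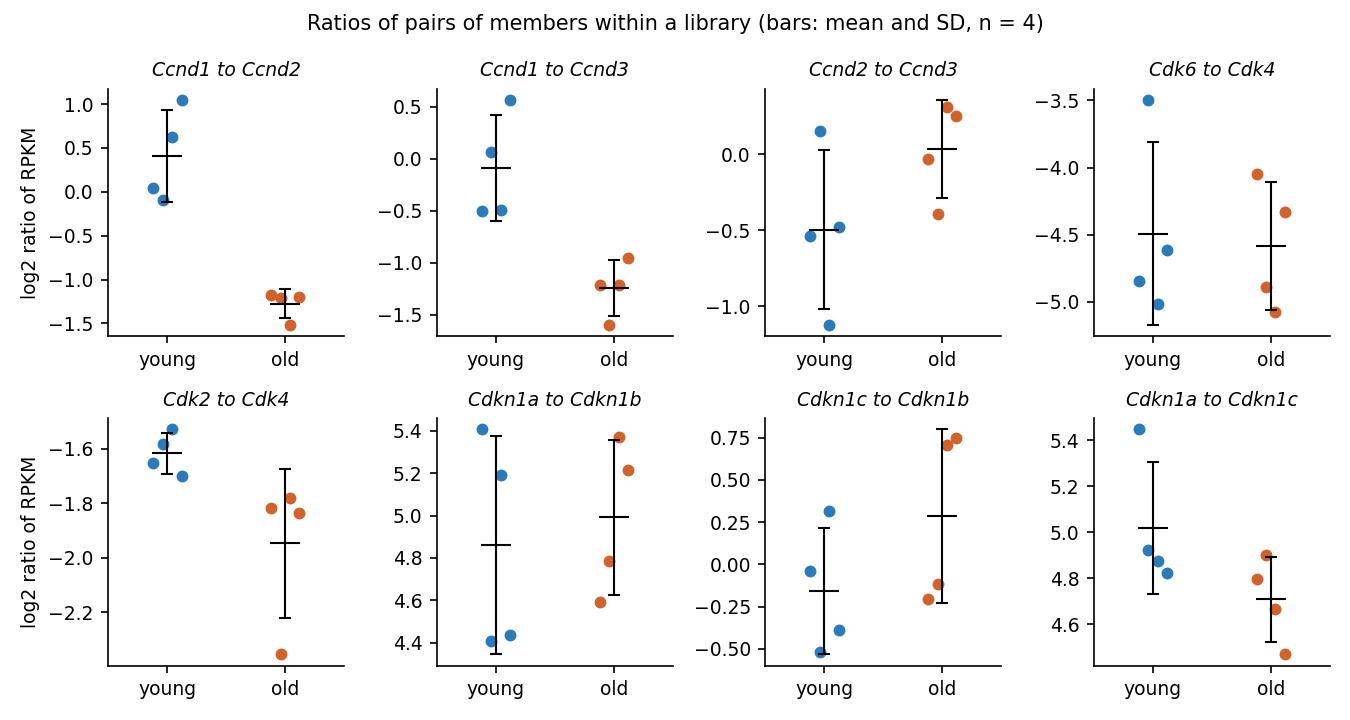
Log2 ratio of RPKM for 8 pairs of members in each library, young and old side by side, with the group mean as a line. Young and old points are separate for Ccnd1 to Ccnd2, Ccnd1 to Ccnd3 and Cdk2 to Cdk4.

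Cdk4, a catalytic partner of the D cyclins, lies on chromosome 10 from 127063534 to 127067920 on the plus strand. Its share-of-reads values were 33.8, 33.8, 37.3 and 39.0 RPKM in the young libraries and 25.9, 28.9, 25.4 and 28.2 RPKM in the old. All young libraries were higher than all old ones, with little spread within either group. Cdk4 fell by 0.40 ± 0.11 on the log2 scale (SE, 95% interval -0.63 to -0.16, limma, BH-adjusted p = 0.0199). The call was lost without young library 3 (adjusted p = 0.054), young library 4 (0.0588) or old library 3 (0.055), with upper-quartile scaling (0.0511) and after thinning (-0.28 ± 0.12, 0.115). Its deposited mean was 28.7 ± 6.04 RPKM in the young and 34.8 ± 5.75 RPKM in the old libraries (SD, n = 4 each), a log2 fold change of 0.28 ± 0.21 (limma, BH-adjusted p = 0.232), so its direction depended on the scale. Its exons share 641 bases, 19.7% of their length, with the opposite-strand gene Tspan31, which stood at 65.2 RPKM in the young and 137 RPKM in the old libraries on the deposited scale.

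Cdk6, the other kinase of the D cyclins, was the member with the lowest mean level in both age groups. It stood at 1.06, 2.84, 1.05 and 1.48 RPKM in the young libraries and at 1.49, 0.909, 0.675 and 1.33 RPKM in the old (share of reads), from 40 to 118 reads in young and 216 to 417 reads in old libraries. The groups overlapped, and young library 2, where the receptor genes averaged 0.982 RPKM, was the highest. The log2 fold change was -0.28 ± 0.25 (SE, 95% interval -0.82 to 0.26, limma, BH-adjusted p = 0.409), and with the receptor level subtracted it was -0.02. Deposited values of Cdk6 averaged 1.2 ± 0.402 RPKM in the young and 1.39 ± 0.428 RPKM in the old libraries (SD, n = 4 each), and the log2 fold change was 0.12 ± 0.19 (limma, BH-adjusted p = 0.63). Cdk4 supplied 95.7% of the summed RPKM of Cdk4 and Cdk6 in young and 96.1% in the old libraries on average, and the log2 ratio of Cdk6 to Cdk4 differed by -0.09 ± 0.42 (exact permutation p = 0.83, adjusted 0.83).

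Cdk2, the kinase of cyclin E and cyclin A, lies on chromosome 10 from 128697939 to 128705031 on the minus strand. Its share-of-reads values were 10.7, 11.2, 12.9 and 11.9 RPKM in the young libraries and 7.27, 5.59, 7.35 and 7.86 RPKM in the old. The groups did not overlap, and old library 2 was the lowest. Cdk2 fell by 0.66 ± 0.13 on the log2 scale (SE, 95% interval -0.95 to -0.38, limma, BH-adjusted p = 0.00487). The call held in all 19 alternatives as a share of reads, with values of -0.77 to -0.56 and adjusted p of 0.00437 to 0.0423. Deposited values overlapped, at 9.30 ± 1.97 RPKM in the young and 8.88 ± 0.717 RPKM in the old libraries (SD, n = 4 each), with a log2 fold change of -0.04 ± 0.18 (limma, BH-adjusted p = 0.84). The smallest gene length at which the deposited values gave whole reads was 2432 bases, against 6219 bases of merged exons in GENCODE M21. The recovered reads of Cdk2 rest on that shorter length.

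Relative to Cdk4, Cdk2 was lower in every old library than in any young one, though the ratio did not pass after adjustment. The log2 ratio of Cdk2 to Cdk4 was -1.65, -1.58, -1.53 and -1.70 in the young libraries and -1.82, -2.36, -1.78 and -1.83 in the old. The groups were separate, with a difference of -0.33 ± 0.14 (SE, exact permutation p = 0.0286, adjusted over the 8 ratios 0.0762). Without old library 2 the groups were still separate, with a difference of -0.20. The exact p was 0.0571 without that library or without any 1 of the young libraries.

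Cdkn1a, which encodes the CDK inhibitor p21 and is a textbook target of p53, was the most abundant member in every library. It lies on chromosome 17 from 29090976 to 29100727 on the plus strand. As a share of reads it stood at 84.6, 59.3, 82.3 and 66.6 RPKM in the young libraries and at 72.9, 55.0, 72.2 and 49.1 RPKM in the old. The groups overlapped, and the log2 fold change was -0.23 ± 0.17 (SE, 95% interval -0.60 to 0.13, limma, BH-adjusted p = 0.325). The deposited values were 69.0, 36.2, 72.5 and 57.8 RPKM in the young and 85.8, 81.1, 86.6 and 61.9 RPKM in the old libraries. Young library 2 was far below the others there, and the log2 fold change was 0.45 ± 0.23 (limma, BH-adjusted p = 0.0903). Without young library 3 that value was 0.56 with adjusted p = 0.0485 (limma). The smallest gene length at which the deposited values gave whole reads, 2223 bases, was again shorter than the 3553 bases of merged exons in GENCODE M21.

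Cdkn1b encodes p27 and did not pass on either scale. Its share-of-reads values were 1.88, 2.64, 2.14 and 2.97 RPKM in the young libraries and 2.94, 1.93, 1.66 and 1.25 RPKM in the old. The groups overlapped, with old library 1 close to the highest young library. The log2 fold change was -0.23 ± 0.20 (SE, 95% interval -0.66 to 0.20, limma, BH-adjusted p = 0.394), and on the deposited scale it was 0.24 ± 0.19 (limma, BH-adjusted p = 0.329) from 1.90 ± 0.476 RPKM in the young and 2.47 ± 0.852 RPKM in the old libraries (SD, n = 4 each). Young libraries 1 and 2 held 23 reads each, for which counting error alone gives 1.19 to 2.81 and 1.68 to 3.96 RPKM (exact Poisson 95% intervals).

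Cdkn1c encodes p57, is imprinted and is expressed from the maternal allele. It stood at 1.82, 1.80, 2.69 and 2.24 RPKM in the young libraries and at 2.54, 1.78, 2.77 and 2.14 RPKM in the old as a share of reads. The groups overlapped almost completely, and the log2 fold change was 0.08 ± 0.16 (SE, 95% interval -0.28 to 0.43, limma, BH-adjusted p = 0.745). On the deposited scale it stood at 1.48, 1.10, 2.37 and 1.94 RPKM in the young and at 2.99, 2.62, 3.32 and 2.70 RPKM in the old libraries. These groups were separate, with a log2 fold change of 0.54 ± 0.17 (95% interval 0.18 to 0.90, limma, BH-adjusted p = 0.0182), where the median of all genes of that fit was 0.36. Without young libraries 1 and 2 it was 0.31 (limma, BH-adjusted p = 0.108), and as a share of reads it was then -0.07. Its exons share 625 bases, 30.7% of their length, with the antisense gene Gm44732.

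Cdkn1c was the member with the fewest reads in the young libraries, and libraries 1 and 2 were too shallow for it. Its reads numbered 10, 7, 36 and 26 in the young libraries against 104, 90, 129 and 91 in the old. The 7 reads of young library 2 carry an exact Poisson 95% interval of 2.81 to 14.4 reads, or 0.722 to 3.70 RPKM, which covers every other library of either age. The 10 reads of young library 1 cover 0.873 to 3.35 RPKM. Such intervals hold counting error only, since amplified reads are not independent molecules. For the other low members the fewest reads in a young library were 23 for Cdkn1b, 40 for Cdk6, 52 for Ccnd1 and 101 for Ccnd2. The wide intervals of Cdkn1b given above show that young libraries 1 and 2 were shallow for it too.

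**Figure D4:**
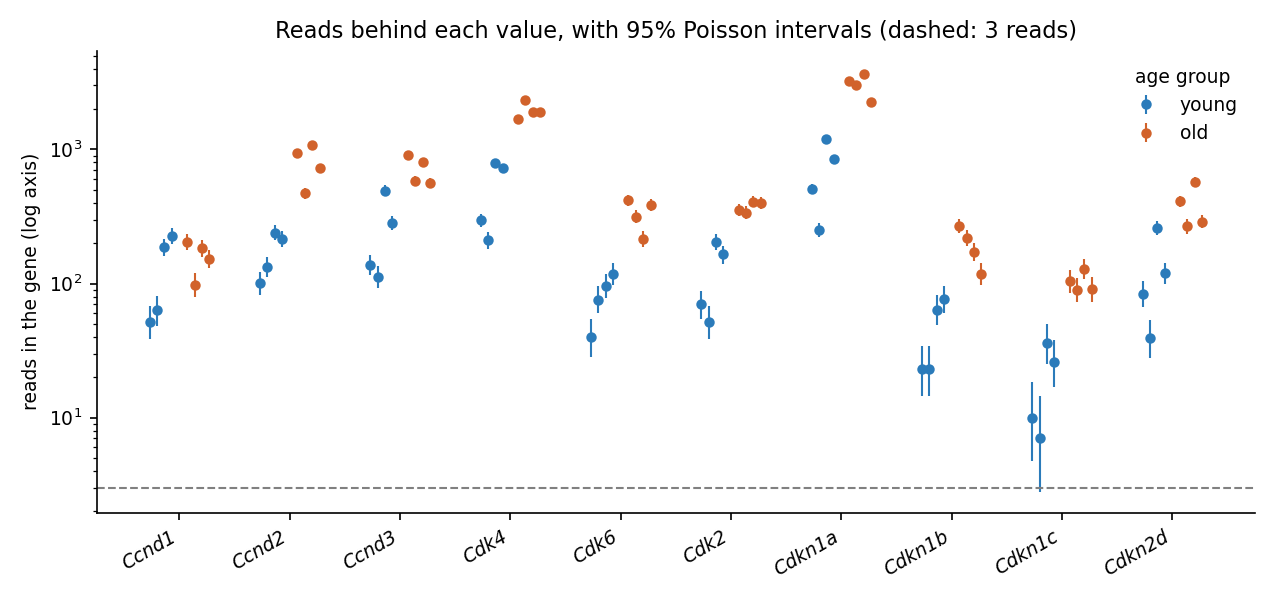
Reads per library behind each of the 10 genes, on a log axis, young and old side by side. Bars are Poisson 95% intervals and the dashed line marks 3 reads. Cdkn1c has 7 to 36 reads in the young libraries and 90 to 129 in the old.

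Within the CIP/KIP family Cdkn1a supplied 94.0% of the summed RPKM in the young and 93.6% in the old libraries on average. The family sum was 77.8 ± 12.0 RPKM in the young and 66.6 ± 12.9 RPKM in the old libraries as a share of reads (SD, n = 4 each), and 62.5 ± 16.8 against 84.2 ± 12.3 RPKM on the deposited scale. Its direction thus depended on the scale. Log2 ratios overlapped between the ages for the 3 pairs of the family. That of Cdkn1a to Cdkn1b differed by 0.13 ± 0.32 (exact permutation p = 0.657, adjusted 0.751), that of Cdkn1c to Cdkn1b by 0.44 ± 0.32 (p = 0.229, adjusted 0.305) and that of Cdkn1a to Cdkn1c by -0.31 ± 0.17 (p = 0.0857, adjusted 0.171).

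Cdkn2d encodes p19, an INK4 inhibitor of CDK4 and CDK6. As a share of reads it stood at 19.8, 13.0, 25.2 and 13.3 RPKM in the young libraries and at 13.0, 6.82, 16.0 and 8.85 RPKM in the old. The old libraries lay lower but overlapped the young. The log2 fold change was -0.64 ± 0.26 (SE, 95% interval -1.22 to -0.07), which did not pass (limma, BH-adjusted p = 0.0936) but did without old library 3 (adjusted p = 0.0361). On the deposited scale it stood at 14.4 ± 6.16 RPKM in the young and 13.9 ± 4.15 RPKM in the old libraries (SD, n = 4 each), with a log2 fold change of -0.00 ± 0.25 (limma, BH-adjusted p = 0.993).

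The other INK4 genes were low. Cdkn2a, which encodes p16 and p19ARF and is known for rising in senescent cells, had 2, 5, 2 and 2 reads in the young libraries and 4, 1, 0 and 1 in the old, 11 against 6 in all. These counts allow no comparison of ages. Cdkn2b had 25 reads in all young and 102 in all old libraries. Cdkn2c stood at 4.32 ± 0.668 RPKM in the young and 3.92 ± 0.418 RPKM in the old libraries as a share of reads (SD, n = 4 each), with a log2 fold change of -0.11 ± 0.13 (limma, BH-adjusted p = 0.562). Its deposited mean was 3.43 ± 0.826 RPKM in the young and 5.06 ± 1.12 RPKM in the old libraries, and it passed as higher there (0.45 ± 0.17, limma, BH-adjusted p = 0.0454), where the median of all genes was 0.36.

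**Figure D5:**
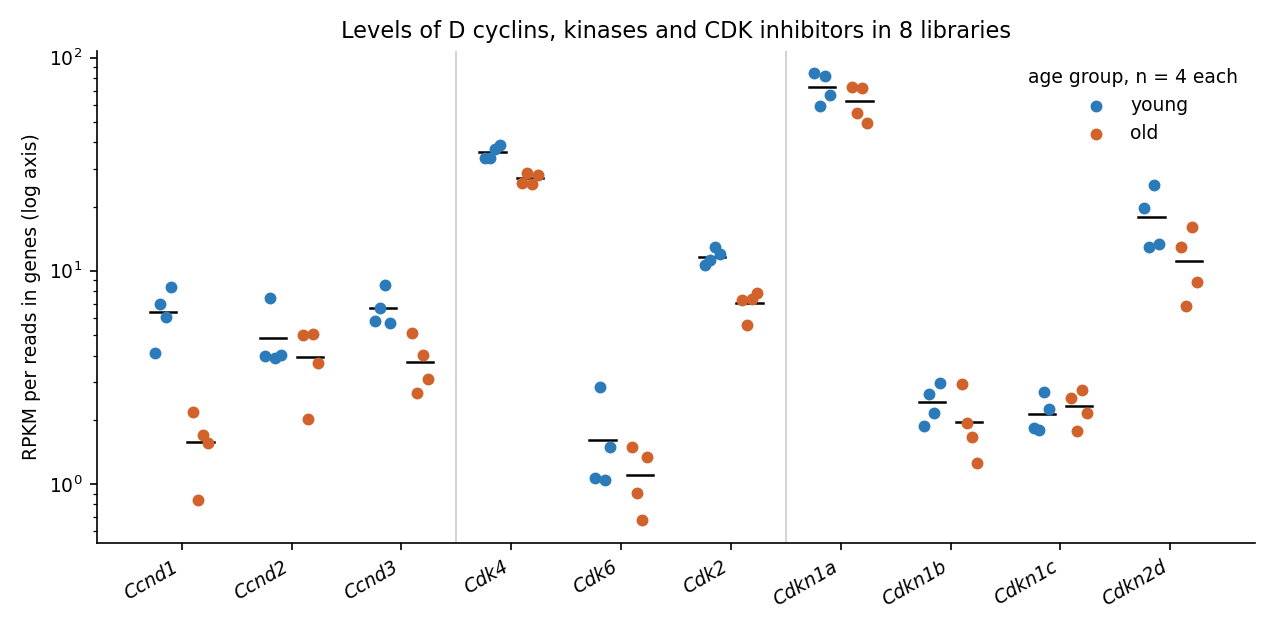
RPKM per share of reads of the 10 genes in each library on a log axis, young and old side by side. Cdkn1a and Cdk4 are the highest in both ages, and young and old points are separate for Ccnd1, Ccnd3, Cdk4 and Cdk2.

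The levels had nearly the same order in both ages. In young libraries the mean share-of-reads RPKM ran from Cdkn1a (73.2 ± 12.3) over Cdk4 (36.0 ± 2.60), Cdkn2d (17.8 ± 5.85), Cdk2 (11.7 ± 0.946), Ccnd3 (6.69 ± 1.34), Ccnd1 (6.40 ± 1.82), Ccnd2 (4.84 ± 1.74), Cdkn1b (2.41 ± 0.492) and Cdkn1c (2.14 ± 0.423) to Cdk6 (1.61 ± 0.847). The first 5 of these were in that order in all 4 young libraries, while Ccnd3 and Ccnd1, Ccnd1 and Ccnd2, Cdkn1b and Cdkn1c, and Cdkn1c and Cdk6 changed places between libraries. In old libraries it ran from Cdkn1a (62.3 ± 12.1) over Cdk4 (27.1 ± 1.71), Cdkn2d (11.2 ± 4.10), Cdk2 (7.02 ± 0.988), Ccnd2 (3.94 ± 1.43), Ccnd3 (3.73 ± 1.09), Cdkn1c (2.31 ± 0.437), Cdkn1b (1.94 ± 0.723) and Ccnd1 (1.57 ± 0.551) to Cdk6 (1.10 ± 0.373). The ranges of Cdkn2d and Cdk2 and of every neighbouring pair from Ccnd2 downwards overlapped there. Ccnd1 moved from rank 6 to rank 9 and was the member that changed rank most.

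The 61 other genes of the pathway include the other INK4 genes above and the 12 cycling markers below. Of these 61 genes, 22 averaged 5 RPKM or more, and as a share of reads 2 passed as higher, 1 as lower and 19 did not pass. Their median log2 fold change was 0.09, against -0.01 for all genes tested, of which 12.3% passed as higher and 12.5% as lower. On the deposited scale 19 of the 22 passed as higher and 0 as lower, with a median of 0.74, where 68.1% of all genes passed as higher. E2f6, an E2F that represses and does not bind pocket proteins, rose from 5.90 ± 1.01 to 11 ± 2.79 RPKM (share of reads, SD, n = 4 each), by 0.78 ± 0.18 on the log2 scale (limma, BH-adjusted p = 0.00969, and 1.39 on the deposited scale). Rbx1, the RING subunit of the ubiquitin ligases that degrade cyclins and p27, rose by 0.57 ± 0.12 (limma, BH-adjusted p = 0.00665, and 1.25 on the deposited scale). Ccnh, the cyclin of the kinase that activates CDKs, fell by 0.75 ± 0.13 (limma, BH-adjusted p = 0.00302, and -0.12 on the deposited scale). Myc, a known activator of Cdk4 that is named here after its value was seen, stood at 819 ± 36.2 RPKM in the young and 850 ± 22.9 RPKM in the old libraries as a share of reads and did not pass (0.05 ± 0.10, limma, BH-adjusted p = 0.731).

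With the filter at 1 RPKM, 45 of the 61 genes were tested, and 11 passed as lower and 2 as higher as a share of reads, against 20.5% and 7.11% of all genes. On the deposited scale 3 of the 45 passed as lower and 22 as higher, against 5.34% and 42.1%. The lower genes on both scales include Top2a, a cycling marker described in the next paragraph. The genes below were named after their values were seen. Among 2 tested pocket proteins Rbl2 (p130), the pocket protein typical of quiescent cells, fell by 0.64 ± 0.16, and among 7 E2F and DP genes E2f2 (-1.09 ± 0.19) and Tfdp2 (-0.70 ± 0.20) fell. Lin9 of 6 MuvB and DREAM genes (-0.50 ± 0.17), Cdc25b (-0.44 ± 0.13) and Cdc25c (-1.65 ± 0.29) of 4 later cyclins and CDC25 phosphatases, and Mnat1 (-0.51 ± 0.14) beside Ccnh of 3 subunits of the CDK-activating kinase were lower as well. Gsk3b (-0.78 ± 0.18), a kinase that marks cyclin D1 for degradation, was lower among 9 turnover genes, and Mycn (-0.82 ± 0.18) among 7 upstream regulators. E2f2 and Cdc25c were also lower on the deposited scale (-0.68 and -1.30), and the others named in this group were not called there. With the receptor level subtracted, lower calls as a share of reads went from 2278 to 1210 of all 11096 genes at this filter. The part of that level in the falls named here was not tested.

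Of 12 cycling markers 6 averaged 1 RPKM or more. As a share of reads 1 of these passed as lower and 5 did not pass, with 20.5% of all genes lower, and on the deposited scale 2 passed as higher and 1 as lower, against 42.1% and 5.34% of genes. Top2a, the topoisomerase of dividing cells, was lower in old animals (-1.25 ± 0.25 as a share of reads, limma, BH-adjusted p = 0.00744, and -0.93 on the deposited scale). Pcna, the replication clamp and the highest of the list, stood at 39.8 ± 3.83 RPKM in young animals and 48.6 ± 5.95 RPKM in old as a share of reads (SD, n = 4 each), which did not pass (0.28 ± 0.12, limma, BH-adjusted p = 0.127), and was 0.96 higher on the deposited log2 scale. Mki67, which was under the filter of 1 RPKM, stood at 0.954 ± 0.285 RPKM in the young and 0.186 ± 0.119 RPKM in the old libraries (SD, n = 4 each). The receptor genes had 0.486 and 0.0270 RPKM on the same scale, and their part in the Mki67 and Top2a differences was not tested.

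For 3 members the genes of most similar pattern were taken by Pearson correlation over the 8 libraries after centring each age group on its mean, among 5703 genes. These are descriptions from points that share depth and scaling. The highest of 5703 correlations over 8 points can be high by chance alone, and none was tested. For Ccnd1 they were Fscn1 (r = 0.978), Ift52 (0.953) and Col3a1 (0.953). For Cdkn1a they were Galnt18 (0.969), Exd2 (0.966) and Bag3 (0.963), and for Cdkn1b they were Ier3 (0.958), Fgfr4 (0.942) and Mcm6 (0.941).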

How the data were processed

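Messenger RNA of 8 libraries (4 young, 4 old) was converted with an oligo(dT) SMARTer kit, which does not mark the strand, and sequenced in paired reads, per the labels' protocols. The authors deposited RPKM values for 24630 genes; the submitters' processing notes name STAR, Trim Galore, edgeR and featureCounts from Subread, and the builds GRCm38 and mm10. For these tools, no version or setting is given in the sources used here. Dividing the deposited RPKM by what 1 read is worth gave whole numbers in all 23461 genes with reads (within 0.0005 plus 1e-07 per read), hence reads per gene and library totals, and 1169 genes had none. In 18817 of the genes with reads this used the annotated gene length. In the rest, Cdk2 and Cdkn1a among them, the smallest length that gave whole numbers was searched for. Whole numbers in those genes are therefore no separate check of the recovery. In 7125 genes zeros had been replaced by small positive values; shares of reads used the recovered 0.

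Values were tested as log2(value + 1) with limma-trend (limma 3.58.1, R 4.3.3), old minus young, without covariates, with Benjamini-Hochberg adjustment over all genes tested and a threshold of 0.05. Genes needed a mean deposited RPKM of at least 5, and members below it were read from the fit at 1. This scale understates fold changes of low genes. Ratios used values plus 0.1 and an exact permutation test. Fits and recovery were tested on simulated data. The members, lists and tests were chosen with earlier results of these data known. All members are named; the rule named other pathway genes that passed as a share of reads at the filter of 5, and those read at the filter of 1, the other INK4 genes, Myc, Pcna, Mki67, Sdc4 and Calcr were named after their values were seen. Alternatives were other filters, pseudocounts and scalings, limma-voom, thinning by a random draw made once, a replicate block and leaving out libraries. Coordinates are from GENCODE M21 and promoters from RefSeq.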

Additional observations from a re-analysis of the deposited data

Results flagged for a closer look

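In 4 of 36 groups checked, 1 library stood apart from the other 3 by more than Dixon's 95% critical value for 4 samples (the gap to the nearest library divided by the range of the group). Chance flags about 1 in 20 groups. Ccnd2 as a share of reads had young library 2 at 7.45 RPKM above the other young libraries at 3.87 to 4.03 RPKM, with a gap of 0.955 of the range. The log2 ratio of Ccnd1 to Ccnd2 had old library 3 at -1.52 below the others at about -1.20, with a gap of 0.926. The log2 ratio of Cdk2 to Cdk4 had old library 2 at -2.36 below the other old libraries at -1.83 to -1.78, with a gap of 0.905. For Cdkn1a to Cdkn1c the log2 ratio had young library 1 at 5.45 above the other young libraries at 4.82 to 4.92, with a gap of 0.841, and Cdkn1c had 10 reads in that library.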

How the results depend on the processing

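The count of members lower as a share of reads, 3 at a mean of 5 RPKM, ran from 1 to 3 when single libraries were left out (1 without young library 3) and was 1 after thinning. The count on the deposited scale, 0, ran from 0 to 1 when single libraries were left out and was 2 at a filter of 1 RPKM and 2 without a filter. The labels name no pairing of animals by replicate number. Same-numbered libraries correlated at -0.16, -0.06, 0.38 and -0.23, and libraries of different number at -0.39 to 0.40. Whether same-numbered libraries share a batch cannot be told from these values. With a replicate block the counts were 4 and 0, with Cdkn2d added as a share of reads (adjusted p = 0.00935), and no other call of the members changed. Signs turned, with no call on either side, when single libraries were left out for Ccnd3 (-0.25 to 0.011), Cdk2 (-0.17 to 0.051) and Cdkn2d (-0.24 to 0.22) on the deposited scale and for the ratios of Cdk6 to Cdk4 (-0.27 to 0.24) and Cdkn1a to Cdkn1b (-0.019 to 0.31). They also turned for deposited Cdk2 (0.00755) and Cdkn2d (0.036) with the receptor level subtracted, for Cdkn2d at a pseudocount of 0.1 (0.000722), and for Cdkn1c as a share of reads without young libraries 1 and 2 (-0.075), with limma-voom (-0.00473) and after thinning (-0.013). The cause was not tested. Subtracting the receptor level was chosen after the data were seen. Depth limits the low members, since all libraries with few reads are young and depth and age cannot be told apart.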
